A study of Mus musculus with 60 samples.

Results

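The genes described here, 36 in all, take part in the response to interferons and in the presentation of antigens on major histocompatibility complex (MHC) class I molecules. They were given as a list of gene symbols, matched to the rows of the expression table through GENCODE release M21, and kept where the value was at least 10 in at least 5 libraries. All 36 of the 36 listed genes were in the table and passed, each of them in all 60 libraries, out of 17810 genes that passed and 18088 genes in the table. The rule did not use any difference between groups.

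RNA was sequenced from the prefrontal cortex of male and female C57BL/6J mice on postnatal day 25. The mice were heterozygous for the C456Y allele of Grin2b (Het) or wild type (WT). Grin2b encodes GluN2B, a subunit of NMDA receptors for glutamate, and C456Y changes an amino acid of it. Pups received fluoxetine, a selective serotonin reuptake inhibitor, or lithium, a mood stabiliser, or vehicle, through the milk of their mothers from postnatal day 3 to 24. The sources used here do not give the doses. The groups were Het fluoxetine, Het lithium, Het vehicle, WT fluoxetine, WT lithium and WT vehicle, each with 5 female and 5 male libraries. Within a group and sex the labels number the libraries from 1 to 5, without naming the animals or litters behind them, and littermates would share a treated mother. All p-values here rest on the spread between these libraries, which may be technical in part.

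Interferons are secreted in response to infection. Type I interferons bind the receptor chains Ifnar1 and Ifnar2, and type II interferon (interferon gamma) binds Ifngr1 and Ifngr2. Signals from the type I receptor assemble a complex in which Irf9 contacts the DNA at the interferon-stimulated response element (ISRE), while signals from the type II receptor act through the gamma-activated site (GAS). The genes they switch on block viral entry, bind viral RNA and raise the supply of peptides for MHC class I. In the brain, microglia and vascular cells are known to express many of them.

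Promoter stretches are shown for Gbp2, Gbp3, Gbp7 and Ifit3, because the Gbp genes were lower in lithium-treated WT mice and Ifit3 was higher in fluoxetine-treated Het mice. Each stretch holds the 160 bases before an annotated start, on the plus strand of GRCm38.p6, taken from RefSeq. Gbp2 is at chr3:142620503-142620662, Gbp3 at chr3:142559884-142560043, Gbp7 at chr3:142530176-142530335 and Ifit3 at chr19:34583369-34583528. Capitals mark the ISRE core, searched as GAAANNGAAA, and the GAS core, searched as TTCNNNGAA, on both strands.
Gbp2: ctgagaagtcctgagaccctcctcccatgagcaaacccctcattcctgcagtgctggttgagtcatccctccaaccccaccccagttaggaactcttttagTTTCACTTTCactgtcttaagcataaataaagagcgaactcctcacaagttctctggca
Gbp3: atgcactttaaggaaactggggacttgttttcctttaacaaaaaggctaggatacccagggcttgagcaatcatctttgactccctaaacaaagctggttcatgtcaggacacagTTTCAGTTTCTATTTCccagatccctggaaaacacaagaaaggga
Gbp7: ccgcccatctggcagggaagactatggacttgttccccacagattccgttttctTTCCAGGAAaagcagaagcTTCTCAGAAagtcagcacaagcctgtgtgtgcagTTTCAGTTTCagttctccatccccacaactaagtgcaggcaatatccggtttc
Ifit3: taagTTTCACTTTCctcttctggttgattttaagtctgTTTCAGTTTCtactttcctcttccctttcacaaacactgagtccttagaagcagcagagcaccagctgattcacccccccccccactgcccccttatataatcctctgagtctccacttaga

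The ISRE core matched once in the Gbp2 stretch and once in that of Gbp7, where 2 matches to the GAS core lay before it. Gbp3 and Ifit3 each held 2 matches to the ISRE core, which in Gbp3 overlapped and read as 1 run of capitals. RefSeq windows from 250 bases before to 50 after a start were found for 32 of the 36 genes. The ISRE core was in a window of 14 of these genes (43.8%), beside 3.99% of all 27025 genes with a window. The GAS core was in a window of 9 of them (28.1%), beside 9.55% of all genes. The 14 genes with an ISRE core were B2m, Bst2, Ddx58, Gbp2, Gbp3, Gbp7, Ifih1, Ifit1, Ifit3, Ifitm2, Ifitm3, Isg15, Rsad2 and Stat2. A match is only a run of letters in these windows.

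The values are normalised read counts, which are gene read counts divided by 1 size factor per library. The totals recovered from them were 23901635 to 37769417 reads per library. Tissue identity was checked against genes of cortical neurons: across the 60 libraries the lowest, median and highest normalised read counts were 38830, 52760 and 68010 for Slc17a7, the vesicular glutamate transporter of cortical excitatory neurons, and 5307, 8195 and 15490 for Gad1, which makes GABA in interneurons. Groups were compared with limma on log2(normalised read count + 1), and a gene is called where its p, adjusted over all 17810 genes by the Benjamini-Hochberg method, was below 0.05. A log2 fold is a difference on that scale, which understates the change of genes with low counts, and SE is its standard error. Contrasts of genotype or drug were averaged over the sexes, with 10 libraries in each group.

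A few libraries stood apart for these genes before any comparison. Log2 ratios of a library are given here to the median of the other libraries of its genotype and drug. Het vehicle female 3 was among the 3 highest of 60 libraries for 22 of the 36 genes, and the median of its log2 ratios was 0.35. Het fluoxetine male 1 was among the 3 highest for 18 genes, with a median log2 ratio of 0.33. The next library was among them for 9. These 2 libraries differed in what else was high. In Het vehicle female 3 the summed markers of microglia were at a log2 ratio of 0.34, those of endothelium at 0.43 and those of oligodendrocytes at -1.37. In Het fluoxetine male 1 microglial markers were at -0.05 and endothelial markers at -0.23. WT lithium male 5 stood apart in both directions. It was among the 3 lowest for 13 genes and the highest of all for 4, with a median log2 ratio of -0.09.

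**Figure D1:**
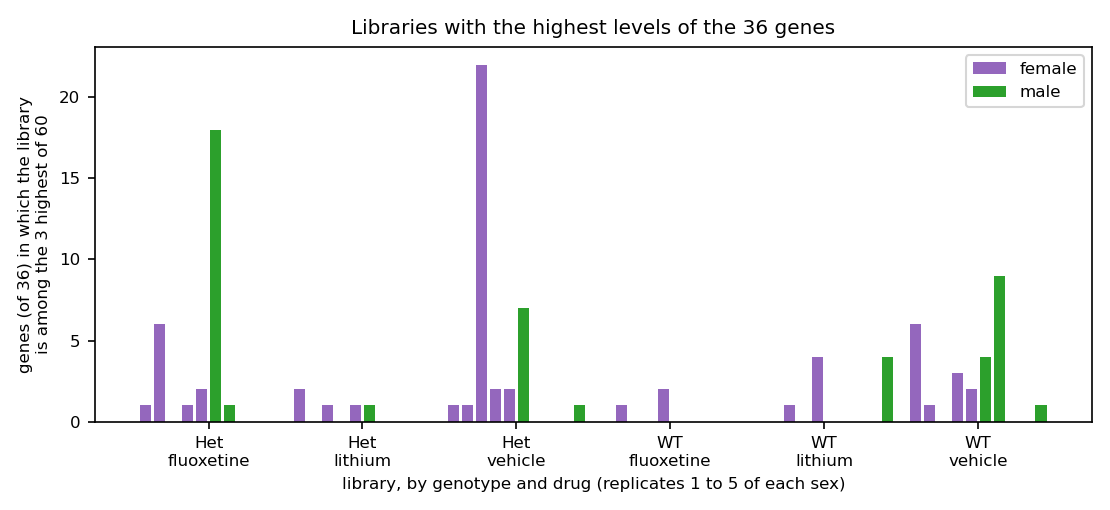
Number of the 36 genes (vertical axis) for which each library (horizontal axis, replicates 1 to 5 of each sex within the 6 groups) was among the 3 highest of 60. Het vehicle female 3 stands at 22 genes and Het fluoxetine male 1 at 18, and every other library at 9 or fewer.

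Libraries were also compared in the level of 16 pseudogenes, which were picked because they were called between Het and WT mice given fluoxetine with a log2 fold beyond 2 in size. That these groups differ in them therefore follows from the choice, and the levels are given only to show which libraries the term below covers, split at the widest gap. The other 9 Het fluoxetine libraries and WT vehicle female 2 had mean log2 levels of them between 1.78 and 3.15, against 4.6 and above in the remaining libraries, Het fluoxetine male 1 among them. A fit with a term for these 10 libraries, called the library term below, estimates the Het fluoxetine group from Het fluoxetine male 1 and from the shift seen in WT vehicle female 2. Calls that involve Het fluoxetine are therefore given with and without that term, and the part that library differences have in them cannot be told apart from the group.

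Expression of the 36 genes spanned a wide range. Per kilobase of exon, the mean normalised read count over all libraries was highest for B2m at 1970, followed by Ifngr2 at 369, H2-D1 at 356 and Ifitm3 at 336. It was lowest for Psmb9 at 5.87, Rsad2 at 7.15 and Usp18 at 9.57. The unscaled counts of these low genes were small, with a minimum of 10.8 for Psmb9, 12.2 for Usp18 and 16.4 for Rsad2 in any library, so small changes in them were not detectable at this depth. Several genes share sequence or position with others, and their values are uncertain to that extent: Ifitm2 with Ifitm3, Ifit3 with Ifit3b, H2-K1 with H2-D1, and the guanylate-binding protein genes with each other. Irf9 overlaps Rnf31 on the same strand. Irf1, Irf3 and Irf7 overlap genes on the other strand, as Tap1 and Psmb9 do each other. The kit was stranded, but the sources used here do not tell if reads were assigned by strand.

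Over 7 contrasts of genotype or drug, 17 of the 36 genes were called at least once and 19 never. Single contrasts called up to 39.5% of all genes. The share of all genes called at least once, or in several drug contrasts, was not counted, so these counts have no background beside them. Irf9 was lower under both drugs in both genotypes, and it alone of the 36 was called in all 4 drug contrasts. Without Het vehicle female 3 and Het fluoxetine male 1, limma called 13 of the 36 genes for lithium in WT mice, 9 for fluoxetine in Het mice, 8 for Het against WT in fluoxetine, 4 for fluoxetine in WT mice, 1 for lithium in Het mice and 2 for the interaction of genotype and fluoxetine. In that fit the shares of all genes called were 19.5%, 36%, 40.3%, 8.61%, 0.404% and 22.1% in the same order. The shares for fluoxetine in Het mice, for Het against WT in fluoxetine and for the interaction were larger than those of the 36 genes. With all libraries, the drug contrasts called 4 further genes in 2 contrasts, 11 in 1 and 20 in none. The contrasts of one genotype share their vehicle libraries, and the contrasts of one drug or of vehicle share theirs across the genotype comparisons.

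Lithium in WT mice gave the most calls. There, 12 of the 36 genes fell and none rose, while limma called 19.2% of all genes tested, 9.34% higher and 9.87% lower. The genes that fell were the receptor gene Ifnar1, the factors Irf9 and Irf3, the membrane genes Ifitm2 and Ifitm3, Parp14, Usp18, Gbp2, Gbp3, Gbp7, the MHC gene H2-K1 and the immunoproteasome gene Psmb8. The median log2 fold was -0.18 over the 36 genes, of which 31 were below 0, and 0.004 over all genes. Irf3, Usp18, Gbp7 and Psmb8 lost their calls when certain single libraries were left out. With the WT lithium and WT vehicle groups fitted alone, 7 of the 36 genes were called, all lower, and 7.18% of all genes.

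Markers of several cell types moved in the same comparison. Of the lists of markers, limma called 16 of 20 microglial genes lower, 12 of 17 endothelial, 9 of 10 of pericytes and smooth muscle, 8 of 9 of meningeal fibroblasts and 5 of 10 of astrocytes, but 0 of 9 neuronal genes, of which 0 also reached an unadjusted p of 0.05. Of the border macrophage genes, Cbr2 was called lower (log2 fold -0.62). The oligodendrocyte, lymphocyte and red blood cell lists are not reported here for this contrast. These calls are from the fit of all groups, and marker calls with the 2 groups fitted alone are not given. The summed normalised read counts of the microglial markers ran from 12300 to 18000 in WT lithium, against 17680 to 20710 in WT vehicle libraries. Those of the endothelial markers ran from 13340 to 16470, against 15380 to 19880. The microglial 12300 was in WT lithium female 5, and the next lowest WT lithium sum was 14890, in female 3. In the other groups the microglial sums ran from 16400 to 19740 in Het fluoxetine, 16070 to 20160 in Het lithium, 15520 to 23230 in Het vehicle and 17070 to 23630 in WT fluoxetine libraries. The endothelial sums ran from 13810 to 16610, 14330 to 16920, 15650 to 22080 and 14290 to 22130 in these groups. None of these markers was at 0 in all 60 libraries. The part of the marker genes in this result, and in those of the other comparisons below, was not tested. In bulk tissue, fewer cells of a type and less RNA per cell cannot be told apart.

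Fluoxetine in Het mice changed 8 of the 36 genes, in both directions, where 39% of all genes were called, 19.1% higher and 19.9% lower. Ifit2 and Ifit3 rose, and Irf9, Irf3, Ifitm3, Psmb8, Tap2 and H2-D1 fell. The median log2 fold of the 36 genes was -0.027, beside 0.005 over all genes, and a smaller share of these genes was called than of all genes. With the library term the calls of the genes other than Ifit3 were lost, where 0.275% of all genes were called. The Ifit3 fold in that fit was 0.96. That fit estimates Het fluoxetine from Het fluoxetine male 1 and from the shift seen in WT vehicle female 2. Het fluoxetine male 1 held an Ifit3 value of 410.9, against 223.2 in the next library of its group. The Ifit3 fold with the term is therefore not independent of that library. Among the markers, limma called 7 of 17 endothelial, 2 of 20 microglial, 2 of 10 pericyte and smooth muscle, 1 of 10 astrocyte, 1 of 2 lymphocyte and 2 of 5 red blood cell genes lower. It called 2 of 5 genes of border macrophages higher, Lyve1 (log2 fold 0.64) and Cd163 (0.69), and 2 of 9 of meningeal fibroblasts, Ogn (0.65) and Dcn (0.33). Neuronal genes were called in both directions, 2 higher and 2 lower of 9, and 0 of 8 oligodendrocyte genes were called. In the fit with the library term 0 genes of these marker lists were called.

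Between Het and WT mice given fluoxetine, 4 genes were higher in Het mice (Ifit2, Ifit3, Gbp7 and Ifngr2) and 3 were lower (Irf3, Ifitm2 and Ifitm3). Over all genes, 39.5% were called, 19.6% higher and 19.9% lower. The test of the difference itself, the drug contrast in Het minus that in WT mice, called the same 4 genes that were higher, and 24% of all genes. After GC correction the contrast called 2 of the 36 genes, both higher, and 13% of all genes, and the interaction 1 of the 36 and 7.48% of all genes. The contrast called 4 without WT fluoxetine male 3, and the interaction 2 without Het vehicle male 2. With the library term 0 of the 36 were called in either test, where the contrast called 0.0393% and the interaction 0.0449% of all genes. Among the markers, the contrast called 1 microglial gene higher and 5 lower, 2 endothelial and 2 astrocyte genes lower, 1 higher and 1 lower both of pericytes and smooth muscle and of meningeal fibroblasts, 4 neuronal genes higher and 2 lower, 1 lymphocyte and 2 red blood cell genes lower, and 0 of oligodendrocytes and border macrophages. None of these was called with the library term. At an unadjusted p of 0.05, limma without that term gave 12 genes in the contrast and 8 in the interaction.

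Fluoxetine in WT mice lowered 2 genes, Irf9 and Gbp7, where 8.43% of all genes were called, 4.35% higher and 4.08% lower. Of the 36 genes 32 lay below 0, with a median log2 fold of -0.11, beside 0 over all genes. The count depended on the processing: it was 6, all lower, after GC correction (12.4% of all genes called) or without the 3 libraries with the largest residuals (11.8%), and 4 without Het vehicle female 3 and Het fluoxetine male 1, which are in neither group but enter the common estimate of the spread. Leaving out WT fluoxetine female 1 also gave 4, as did these groups fitted alone (9.09% of all genes called). Among the marker lists 6 of 17 endothelial genes were called lower and 0 of 20 microglial genes, and 0 microglial genes reached an unadjusted p of 0.05. Acta2 of pericytes and smooth muscle was also called lower (log2 fold -0.528), and the neuronal gene Rbfox3 higher (0.195).

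Lithium in Het mice lowered Irf9 alone, where 0.983% of all genes were called. The median log2 fold of the 36 genes was -0.12, with 30 below 0, beside -0.002 over all genes. Of the markers, 1 of 17 endothelial genes and 0 of 20 microglial genes were called lower, with 7 and 2 at an unadjusted p of 0.05. The other marker lists are not reported here for this contrast. The difference between the genotypes in the lithium contrast called 0 of the 36 genes (0.0674% of all genes), and 0 reached an unadjusted p of 0.05. The 3 genes with the smallest p in that test were Stat2 (log2 fold -0.15, 95% interval -0.3 to 0), Ifitm2 (0.19, -0.01 to 0.4) and Irf3 (0.19, -0.02 to 0.4), all at adjusted p of 0.458 or more.

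Genotype alone gave no call among the 36 genes in vehicle (0.59% of all genes called) or in lithium (0.0281%). In vehicle 0 of them reached an unadjusted p of 0.05, and edgeR called 0 as well. The 3 with the smallest p were Stat2 (log2 fold 0.10, adjusted p = 0.546), Irf9 (0.12, adjusted p = 0.561) and Ifitm2 (-0.12, adjusted p = 0.612). In lithium 3 genes reached an unadjusted p of 0.05, and edgeR called 0. These were Irf3 (log2 fold 0.17, adjusted p = 0.359), Irf1 (0.14, adjusted p = 0.43) and Ifit3 (-0.21, adjusted p = 0.431).

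**Figure D2:**
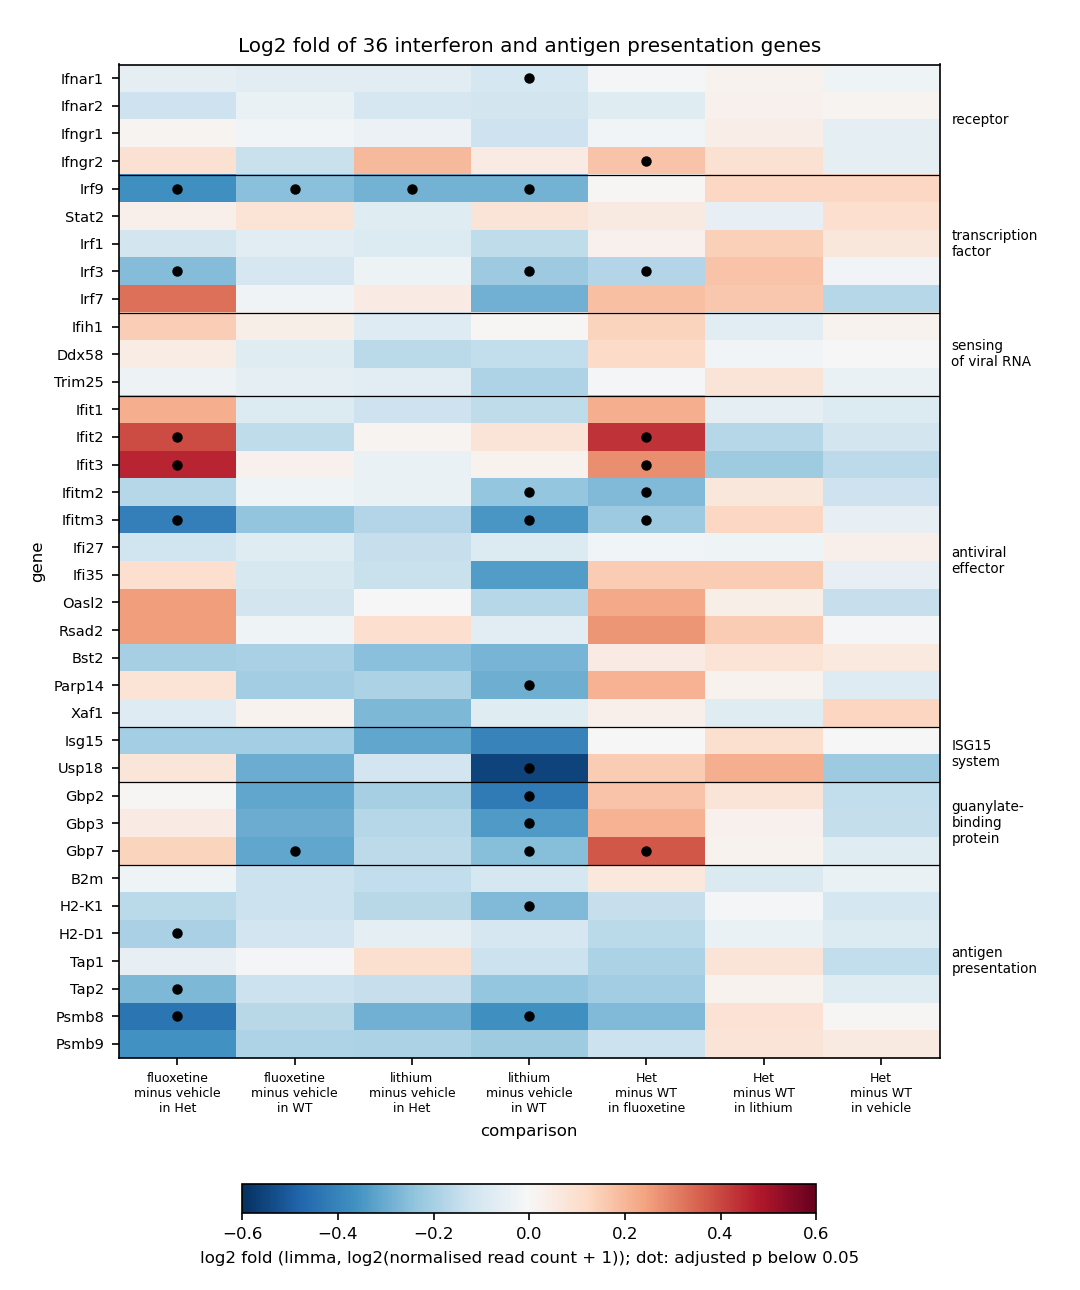
Log2 folds of the 36 genes (rows, grouped by role) in 7 contrasts (columns), from blue (lower in the group named first) to red (higher), with a dot where the adjusted p was below 0.05. The column for lithium in WT mice is mostly blue with 12 dots, Irf9 has a dot in all 4 drug columns, and the Ifit genes are red under fluoxetine in Het mice.

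Among the receptors, Ifnar1 fell under lithium in WT mice, and Ifngr2 was higher in Het than in WT mice given fluoxetine. Ifnar1, on chromosome 16 at 91485238 to 91507441 (GENCODE positions on GRCm38, as for the genes below), encodes a chain of the type I receptor. Ifnar1 had lowest, median and highest normalised read counts of 1376, 1427 and 1584 in Het fluoxetine, 1392, 1431 and 1506 in Het lithium and 1459, 1497 and 1595 in Het vehicle libraries. They were 1354, 1457 and 1520 in WT fluoxetine, 1372, 1420 and 1470 in WT lithium and 1475, 1535 and 1602 in WT vehicle libraries. The 10 WT lithium libraries all lay below the 10 WT vehicle libraries, with the highest of the former at 1470 and the lowest of the latter at 1475. Ifnar1 was the one gene of the 36 whose groups did not overlap in a called contrast. The share of all genes without overlap was not counted. The change was small and the libraries varied little (log2 fold -0.11, SE 0.025, adjusted p = 0.00167). With the WT lithium and WT vehicle groups fitted alone the adjusted p was 0.0545.

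Ifngr2, on chromosome 16 at 91547072 to 91565623, encodes the signalling chain of the type II receptor. Het libraries held Ifngr2 at a lowest, median and highest normalised read count of 1134, 1428 and 1559 with fluoxetine, 1370, 1514 and 1642 with lithium and 1194, 1319 and 1524 with vehicle. WT libraries had 1140, 1277 and 1386 with fluoxetine, 1077, 1420 and 1850 with lithium and 1155, 1407 and 1650 with vehicle. Het fluoxetine exceeded WT fluoxetine libraries in level (log2 fold 0.17, SE 0.06, adjusted p = 0.0202), and 9 of 10 Het libraries exceeded the mean of WT fluoxetine libraries of their own sex, while the ranges overlapped. The drug contrast also differed between the genotypes (log2 fold 0.23, SE 0.085, adjusted p = 0.0462), but that call held in 14 of 40 fits with 1 library left out, with adjusted p from 0.0186 to 0.095, and in the fit with the replicate number as a block the adjusted p was 0.0503. After GC correction it was 0.0931. The Ifngr2 folds with the library term were 0.0056 in the genotype contrast (adjusted p = 0.998) and 0.042 in the interaction (adjusted p = 0.985).

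The other receptor chains were called in none of the 7 contrasts. Normalised read counts of Ifngr1 (lowest, median and highest) were 348, 396 and 441 in Het mice given fluoxetine, 348, 385 and 417 in those given lithium and 346, 388 and 435 in those given vehicle. WT mice had 358, 394 and 505 with fluoxetine, 337, 367 and 434 with lithium and 356, 406 and 468 with vehicle. Group medians of Ifnar2, the partner of Ifnar1, ran from 342.5 in WT lithium to 378 in WT vehicle libraries. The groups of both genes overlapped.

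Among the transcription factors, Irf9 and Irf3 were called. Irf9, the DNA-binding subunit of the complex that reads the ISRE, lies on chromosome 14 at 55603571 to 55610030. For Irf9, lowest, median and highest normalised read counts came to 249.5, 302 and 422 in Het fluoxetine, 269, 323 and 438 in Het lithium and 305, 404 and 524 in Het vehicle mice. Those of WT mice came to 271, 305 and 347 in fluoxetine, 277, 296 and 341 in lithium and 317, 364 and 428 in vehicle libraries. Under fluoxetine, 9 of 10 Het libraries were below the second lowest Het vehicle library, which was at 363, and the exception was Het fluoxetine male 1 at 422. All 10 WT libraries given either drug lay below the WT vehicle mean of their sex, although the ranges overlapped.

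Irf9 fell in Het mice given fluoxetine (log2 fold -0.37, SE 0.066, adjusted p = 2.16e-05) and in WT mice given fluoxetine (log2 fold -0.25, SE 0.066, adjusted p = 0.00941). It also fell in Het mice given lithium (log2 fold -0.28, SE 0.066, adjusted p = 0.0213) and in WT mice given lithium (log2 fold -0.28, SE 0.066, adjusted p = 0.00169). The calls in WT mice held in all 20 fits with 1 library left out for each drug, and the call for fluoxetine in Het mice likewise. That for lithium in Het mice was lost without Het lithium female 2 (adjusted p = 0.0767) or without Het vehicle female 3 (adjusted p = 0.0755). With the library term the Het fluoxetine fold was -0.20 (adjusted p = 0.681), while the other 3 drug contrasts stayed called.

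Rnf31, the gene that overlaps Irf9, did not pass in 3 of the 4 drug contrasts, with log2 folds of 0.028 for fluoxetine and -0.029 for lithium in WT mice and -0.10 for lithium in Het mice. It fell under fluoxetine in Het mice (log2 fold -0.24, adjusted p = 0.000636), but was not called there with the library term (log2 fold -0.058, adjusted p = 0.935). The sources used here do not say how reads were shared between these 2 genes. No ISRE core was found in the promoter windows of Irf9.

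**Figure D3:**
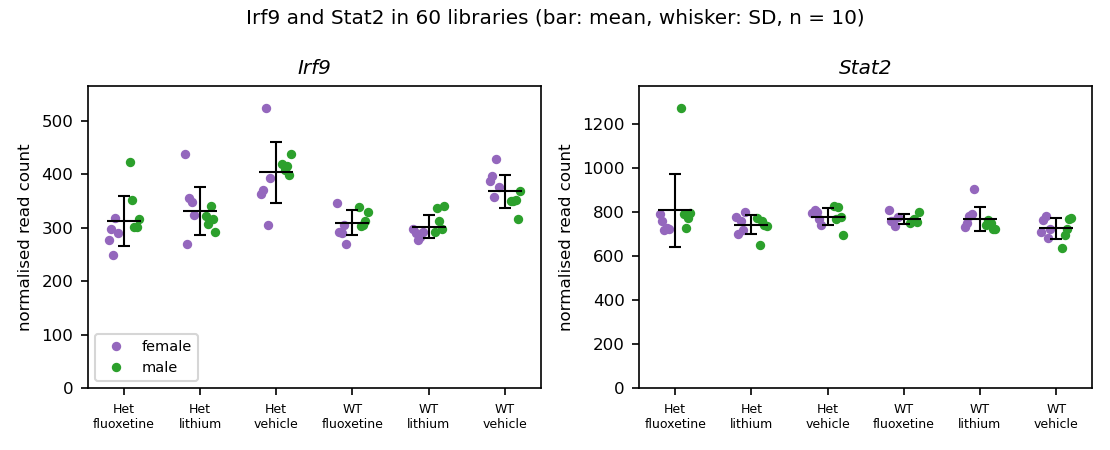
Normalised read counts (vertical axis) of Irf9 and of Stat2 in the 60 libraries by genotype and drug, with females in purple and males in green, and the mean and SD of 10 libraries in black. In Irf9 the drug groups sit below the vehicle group of their genotype, with medians of 296 to 323 against 404 in Het vehicle and 364 in WT vehicle libraries, while Stat2 shows no such step and a single Het fluoxetine library at 1269.

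Stat2, the partner of Irf9 in that complex, was called in none of the contrasts. In Het mice, the lowest, median and highest normalised read counts of Stat2 were 719, 766 and 1269 under fluoxetine, 649, 749.5 and 798 under lithium and 694, 785 and 826 under vehicle. The same counts in WT mice were 734, 759.9 and 810.5 under fluoxetine, 722, 751 and 905 under lithium and 638, 723 and 780.0 under vehicle. The highest value, in Het fluoxetine male 1, stood far above the next Het fluoxetine library at 794.5, and the other libraries overlapped. Stat2 folds under the drugs were 0.032 for fluoxetine in Het mice, 0.083 for fluoxetine in WT mice, -0.073 for lithium in Het mice and 0.079 for lithium in WT mice.

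Irf3, which is activated by sensors of foreign nucleic acid and switches on interferon beta, lies on chromosome 7 at 44997648 to 45002848. Irf3 had lowest, median and highest normalised read counts of 343, 409 and 509.5 in Het fluoxetine, 416, 486 and 583 in Het lithium and 413, 504 and 570.5 in Het vehicle libraries. They were 397, 472 and 539 in WT fluoxetine, 309, 437 and 518 in WT lithium and 422, 506 and 559 in WT vehicle libraries. Irf3 fell in Het mice given fluoxetine (log2 fold -0.26, SE 0.073, adjusted p = 0.0038), with all 10 libraries below the Het vehicle mean of their sex, and after GC correction the fold was -0.11 (adjusted p = 0.245). It fell in WT mice given lithium (log2 fold -0.22, SE 0.073, adjusted p = 0.0305), and was lower in Het than in WT mice given fluoxetine (log2 fold -0.18, SE 0.073, adjusted p = 0.0482). Neither fluoxetine call was kept with the library term, where the Irf3 folds were -0.21 (adjusted p = 0.712) and -0.13 (adjusted p = 0.961). The call for Het against WT mice held in 7 of 20 fits with 1 library left out (adjusted p from 0.023 to 0.115), and the sign turned after GC correction (0.017). After GC correction the lithium fold was -0.15 (adjusted p = 0.098). The lithium call held in 12 of 20 fits (adjusted p from 0.0134 to 0.105), the highest without WT lithium male 5, which had the lowest value of that group.

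Irf1, an activator induced by interferon gamma, and Irf7, which amplifies type I interferon production, were not called in any contrast. Het libraries held Irf1 at a lowest, median and highest normalised read count of 105, 134 and 140.4 with fluoxetine, 108, 137 and 146 with lithium and 116, 139 and 181 with vehicle. WT libraries had 115, 126 and 142 with fluoxetine, 88.99, 121 and 138 with lithium and 116, 136 and 149.9 with vehicle. The groups of Irf1 overlapped. Normalised read counts of Irf7 (lowest, median and highest) were 59.9, 67.5 and 123 in Het mice given fluoxetine, 40.7, 54.7 and 103 in those given lithium and 30.6, 62.8 and 79.5 in those given vehicle. WT mice had 38.1, 65.5 and 85.3 with fluoxetine, 21.7, 59.5 and 70.9 with lithium and 42.2, 63.8 and 98.4 with vehicle. Irf7 spread widely within groups, with Het fluoxetine male 1 highest and WT lithium male 5 lowest of all libraries. Its log2 folds were 0.33 for fluoxetine in Het mice (adjusted p = 0.101) and -0.29 for lithium in WT mice (adjusted p = 0.21).

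None of the 3 genes for sensing viral RNA was called. Ifih1 encodes the sensor MDA5 and Ddx58 the sensor RIG-I, which the ubiquitin ligase Trim25 activates. Group medians of normalised read counts ran from 115 in WT lithium to 138 in Het fluoxetine libraries for Ifih1. They ran from 137 in WT lithium to 149 in WT vehicle libraries for Ddx58, and from 213 in WT lithium to 242 in WT vehicle libraries for Trim25. At an unadjusted p of 0.05, one of the 3 differed under lithium in WT mice, which was Trim25 (log2 fold -0.18, adjusted p = 0.104).

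The antiviral effectors moved in different directions. The Ifit genes encode proteins that bind viral RNA or translation factors, and lie close together on chromosome 19, with Ifit2 at 34550694 to 34576419 and Ifit3 at 34583531 to 34588731. For Ifit2, lowest, median and highest normalised read counts came to 315, 365 and 422 in Het fluoxetine, 224, 276 and 341 in Het lithium and 243, 276 and 318 in Het vehicle mice. Those of WT mice came to 225, 268 and 322 in fluoxetine, 229, 315 and 519 in lithium and 264, 284 and 391 in vehicle libraries. In 9 of 10 Het fluoxetine libraries Ifit2 was above every Het vehicle and every WT fluoxetine library, and WT lithium male 5 held the highest value of all. Ifit2 rose in Het mice given fluoxetine (log2 fold 0.39, SE 0.087, adjusted p = 0.000356) and was higher than in WT mice given fluoxetine (log2 fold 0.43, SE 0.087, adjusted p = 0.000121). The drug contrast differed between the genotypes (log2 fold 0.54, SE 0.12, adjusted p = 0.0018), and fluoxetine in WT mice gave -0.15 (adjusted p = 0.319). These calls held in each fit with 1 library left out. With the library term the folds were 0.35, 0.39 and 0.50 and none was called (adjusted p = 0.508, 0.752 and 0.495).

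Ifit3 followed in the same contrasts. In Het mice, the lowest, median and highest normalised read counts of Ifit3 were 176, 197 and 411 under fluoxetine, 112, 146 and 180.4 under lithium and 104, 153 and 187 under vehicle. The same counts in WT mice were 147, 178 and 190.1 under fluoxetine, 130.3, 169 and 308 under lithium and 145, 173 and 201 under vehicle. The highest value, in Het fluoxetine male 1, was far from the next of its group at 223, and all 10 Het fluoxetine libraries lay above the mean of their sex in Het vehicle and in WT fluoxetine. Ifit3 rose in Het mice given fluoxetine (log2 fold 0.46, SE 0.11, adjusted p = 0.000583), and without Het fluoxetine male 1 and Het vehicle female 3 the fold was 0.36 (adjusted p = 0.00257). The contrast with WT mice given fluoxetine (log2 fold 0.28, SE 0.11, adjusted p = 0.0319) lost its call without Het fluoxetine male 1 (log2 fold 0.17, adjusted p = 0.14) or without WT fluoxetine female 3, male 2 or male 3 (adjusted p = 0.067, 0.0541 and 0.0516). After GC correction the adjusted p was 0.11. The interaction (log2 fold 0.43, SE 0.15, adjusted p = 0.0291) lost its call after GC correction (adjusted p = 0.0847) and without Het fluoxetine male 1 (adjusted p = 0.0541) or Het vehicle male 2 (adjusted p = 0.0574). In the fit with the library term the Ifit3 folds were 0.78 against WT fluoxetine (adjusted p = 0.133) and 0.99 for the interaction (adjusted p = 0.0621). Ifit3b, the near copy of Ifit3, was not called in any of the 7 contrasts, and its log2 fold for fluoxetine in Het mice was -0.0081. Ifit1, the third gene of the group, had group medians of 48.6 in Het lithium to 56.8 in Het fluoxetine libraries and was not called.

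**Figure D4:**
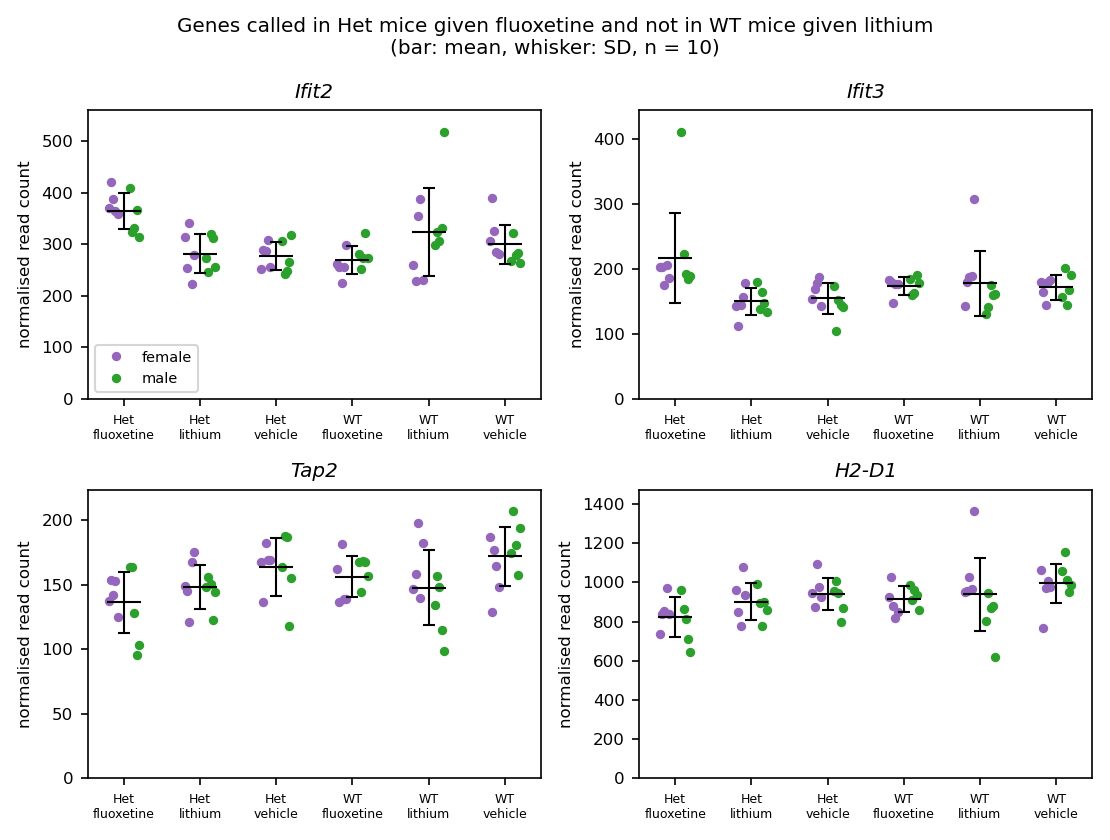
Normalised read counts (vertical axis) of Ifit2, Ifit3, Tap2 and H2-D1 in the 60 libraries by genotype and drug, with females in purple, males in green and the mean and SD of 10 libraries in black. The Het fluoxetine group is highest for Ifit2, with a median of 365, and for Ifit3, with a median of 197 and 1 library at 411, and is lowest for Tap2, with a median of 140, and for H2-D1, with a median of 837.

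Ifitm2 and Ifitm3 encode membrane proteins that hinder the fusion of enveloped viruses, and lie close together on chromosome 7. Ifitm3 had lowest, median and highest normalised read counts of 159.9, 193 and 239 in Het fluoxetine, 187, 229.9 and 261 in Het lithium and 179.5, 259 and 323 in Het vehicle libraries. They were 188, 215 and 280.3 in WT fluoxetine, 140.0, 213 and 241 in WT lithium and 174, 277 and 306 in WT vehicle libraries. All 10 WT lithium libraries lay below the WT vehicle mean of their sex, and WT lithium male 5 and WT vehicle female 2 were the lowest of their groups. Ifitm3 fell in WT mice given lithium (log2 fold -0.35, SE 0.088, adjusted p = 0.00418) and in Het mice given fluoxetine (log2 fold -0.41, SE 0.088, adjusted p = 0.000242). The lower level in Het than in WT mice given fluoxetine (log2 fold -0.22, SE 0.088, adjusted p = 0.0418) was called in 10 of 20 fits with 1 library left out (adjusted p from 0.0151 to 0.117), and not after GC correction (adjusted p = 0.227). With the library term the folds for Het fluoxetine turned positive, at 0.08 against Het vehicle and 0.27 against WT fluoxetine (adjusted p = 0.936 and 0.859).

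Het libraries held Ifitm2 at a lowest, median and highest normalised read count of 144, 159.9 and 193 with fluoxetine, 155, 182 and 196 with lithium and 131, 179.5 and 246 with vehicle. WT libraries had 171, 192 and 224 with fluoxetine, 146, 171 and 204 with lithium and 141, 208 and 224 with vehicle. Ifitm2 fell in WT mice given lithium (log2 fold -0.23, SE 0.072, adjusted p = 0.0196) and was lower in Het than in WT mice given fluoxetine (log2 fold -0.27, SE 0.072, adjusted p = 0.00281). In each contrast 9 of 10 libraries lay below the mean of their sex in the group they were set against, and the ranges overlapped. Both calls held in the 20 fits with 1 library left out. After GC correction the genotype fold was -0.12 (adjusted p = 0.246), and with the library term -0.014 (adjusted p = 0.996).

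Parp14, a mono-ADP-ribosyltransferase, fell under lithium in WT mice. Normalised read counts of Parp14 (lowest, median and highest) were 98.8, 121 and 162 in Het mice given fluoxetine, 80.3, 102 and 129 in those given lithium and 73.3, 123 and 136 in those given vehicle. WT mice had 79.7, 111 and 118 with fluoxetine, 86.2, 95.97 and 119 with lithium and 97.8, 127 and 139 with vehicle. All 10 WT lithium libraries were below the WT vehicle mean of their sex (log2 fold -0.29, SE 0.091, adjusted p = 0.0192), and the ranges overlapped.

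The remaining 6 effectors were not called in any contrast: Ifi27, Ifi35, Oasl2 of the oligoadenylate synthetase-like proteins, Rsad2 (viperin), Bst2 (tetherin) and Xaf1. Group medians of normalised read counts ran from 333 in Het lithium to 392.5 in Het vehicle libraries for Ifi27, from 28.2 in WT fluoxetine to 33.0 in Het fluoxetine libraries for Rsad2, and from 72.0 in WT fluoxetine to 91.4 in Het vehicle libraries for Bst2. No group stood apart in these 3 genes. For Ifi35, lowest, median and highest normalised read counts came to 54.99, 75.96 and 94.7 in Het fluoxetine, 49.98, 64.9 and 83.2 in Het lithium and 29.6, 78.4 and 88.6 in Het vehicle mice. Those of WT mice came to 50.6, 66.8 and 87.2 in fluoxetine, 31.5, 60.9 and 76.1 in lithium and 53.7, 73.2 and 99.3 in vehicle libraries. The groups of Ifi35 overlapped. In Het mice, the lowest, median and highest normalised read counts of Oasl2 were 75.1, 108 and 202 under fluoxetine, 70.5, 93.2 and 114 under lithium and 62.4, 104 and 124 under vehicle. The same counts in WT mice were 75.4, 94.4 and 122 under fluoxetine, 67.7, 93.3 and 111 under lithium and 73.3, 107 and 125 under vehicle. They overlapped for Oasl2 too, and Het fluoxetine male 1 held the highest Oasl2 value. Xaf1 had lowest, median and highest normalised read counts of 52.97, 60.9 and 101 in Het fluoxetine, 37.9, 58.5 and 78.5 in Het lithium and 36.1, 69.5 and 98.8 in Het vehicle libraries. They were 47.1, 59.7 and 92.1 in WT fluoxetine, 39.2, 59.5 and 76.2 in WT lithium and 41.4, 65.5 and 77.3 in WT vehicle libraries. The groups of Xaf1 overlapped as well.

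Of the ISG15 system, Usp18 was called. Isg15 is a ubiquitin-like modifier of other proteins, and Usp18, on chromosome 6 at 121245906 to 121270917, removes it and restrains the type I receptor. Het libraries held Usp18 at a lowest, median and highest normalised read count of 12.2, 27.01 and 70.7 with fluoxetine, 15.2, 24.96 and 34.3 with lithium and 17.3, 23.7 and 42.8 with vehicle. WT libraries had 15.1, 24.7 and 34.1 with fluoxetine, 13.1, 19.9 and 35.5 with lithium and 24.5, 31.4 and 38.9 with vehicle. Het fluoxetine male 1 had 70.7, against 42.8 in the next highest library, and 9 of 10 WT lithium libraries lay below the WT vehicle mean of their sex. Usp18 fell under lithium in WT mice (log2 fold -0.55, SE 0.19, adjusted p = 0.0302), with a 95% interval of -0.93 to -0.18. It is among the lowest of the 36 genes, and the call held in 14 of 20 fits that each left out 1 library (adjusted p from 0.0124 to 0.0784). Normalised read counts of Isg15 (lowest, median and highest) were 20.5, 31.4 and 74.9 in Het mice given fluoxetine, 22.98, 29.4 and 34.5 in those given lithium and 24.1, 36.4 and 57.9 in those given vehicle. WT mice had 22.6, 33.7 and 39.2 with fluoxetine, 20.6, 25.96 and 41.7 with lithium and 24.9, 36.6 and 48.5 with vehicle. Isg15 was not called, with a log2 fold for lithium in WT mice of -0.40 (adjusted p = 0.082) and Het fluoxetine male 1 again apart at 74.9.

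All 3 genes of the guanylate-binding proteins fell under lithium in WT mice. These are interferon-induced GTPases that attack the vacuoles of intracellular microbes, and their genes lie together on chromosome 3, between 142530342 and 142638008, with the promoter stretches shown above. For Gbp2, lowest, median and highest normalised read counts came to 43.7, 69.6 and 84.3 in Het fluoxetine, 40.1, 54.03 and 68.03 in Het lithium and 44.9, 62.8 and 102 in Het vehicle mice. Those of WT mice came to 48.4, 58.7 and 63.97 in fluoxetine, 31.3, 52.97 and 77.9 in lithium and 60.9, 70.5 and 85.7 in vehicle libraries. Of the WT lithium libraries 7 lay below the lowest WT vehicle library, and 9 of 10 under the WT vehicle mean of their sex (log2 fold -0.43, SE 0.11, adjusted p = 0.00405). In Het mice, the lowest, median and highest normalised read counts of Gbp3 were 103, 139.9 and 212 under fluoxetine, 89.1, 120.1 and 129 under lithium and 90.8, 131 and 182 under vehicle. The same counts in WT mice were 90.3, 118 and 148 under fluoxetine, 79.7, 119 and 141 under lithium and 125, 143 and 163 under vehicle. Here too 9 of 10 WT lithium libraries lay under that mean (log2 fold -0.34, SE 0.10, adjusted p = 0.013), and Het fluoxetine male 1 held the highest value. Without the 3 libraries with the largest residuals, 2 of which are WT lithium libraries, the Gbp3 fold was -0.28 (adjusted p = 0.0628).

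Gbp7 had lowest, median and highest normalised read counts of 143, 185 and 217 in Het fluoxetine, 118, 156 and 172 in Het lithium and 140.1, 159.8 and 233 in Het vehicle libraries. They were 122, 133 and 197 in WT fluoxetine, 111, 147 and 205 in WT lithium and 156, 175 and 192 in WT vehicle libraries. Of the WT fluoxetine libraries 8 lay below the lowest WT vehicle library, and WT fluoxetine female 5 at 197 above the highest. Gbp7 fell in WT mice under fluoxetine (log2 fold -0.31, SE 0.086, adjusted p = 0.0131) and under lithium (log2 fold -0.26, SE 0.086, adjusted p = 0.0292). The lithium call held in 15 of 20 such fits, with a highest adjusted p of 0.0631 without WT lithium female 5 or male 1. In Het mice fluoxetine gave 0.13 (adjusted p = 0.225), and the difference between the genotypes was called (log2 fold 0.45, SE 0.12, adjusted p = 0.00641), as was Het against WT in fluoxetine (log2 fold 0.37, SE 0.086, adjusted p = 0.000518), both also without Het fluoxetine male 1 and Het vehicle female 3. After GC correction the adjusted p was 0.0782 for the interaction and 0.0643 for the genotype contrast, and with the library term 0.261 and 0.395.

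**Figure D5:**
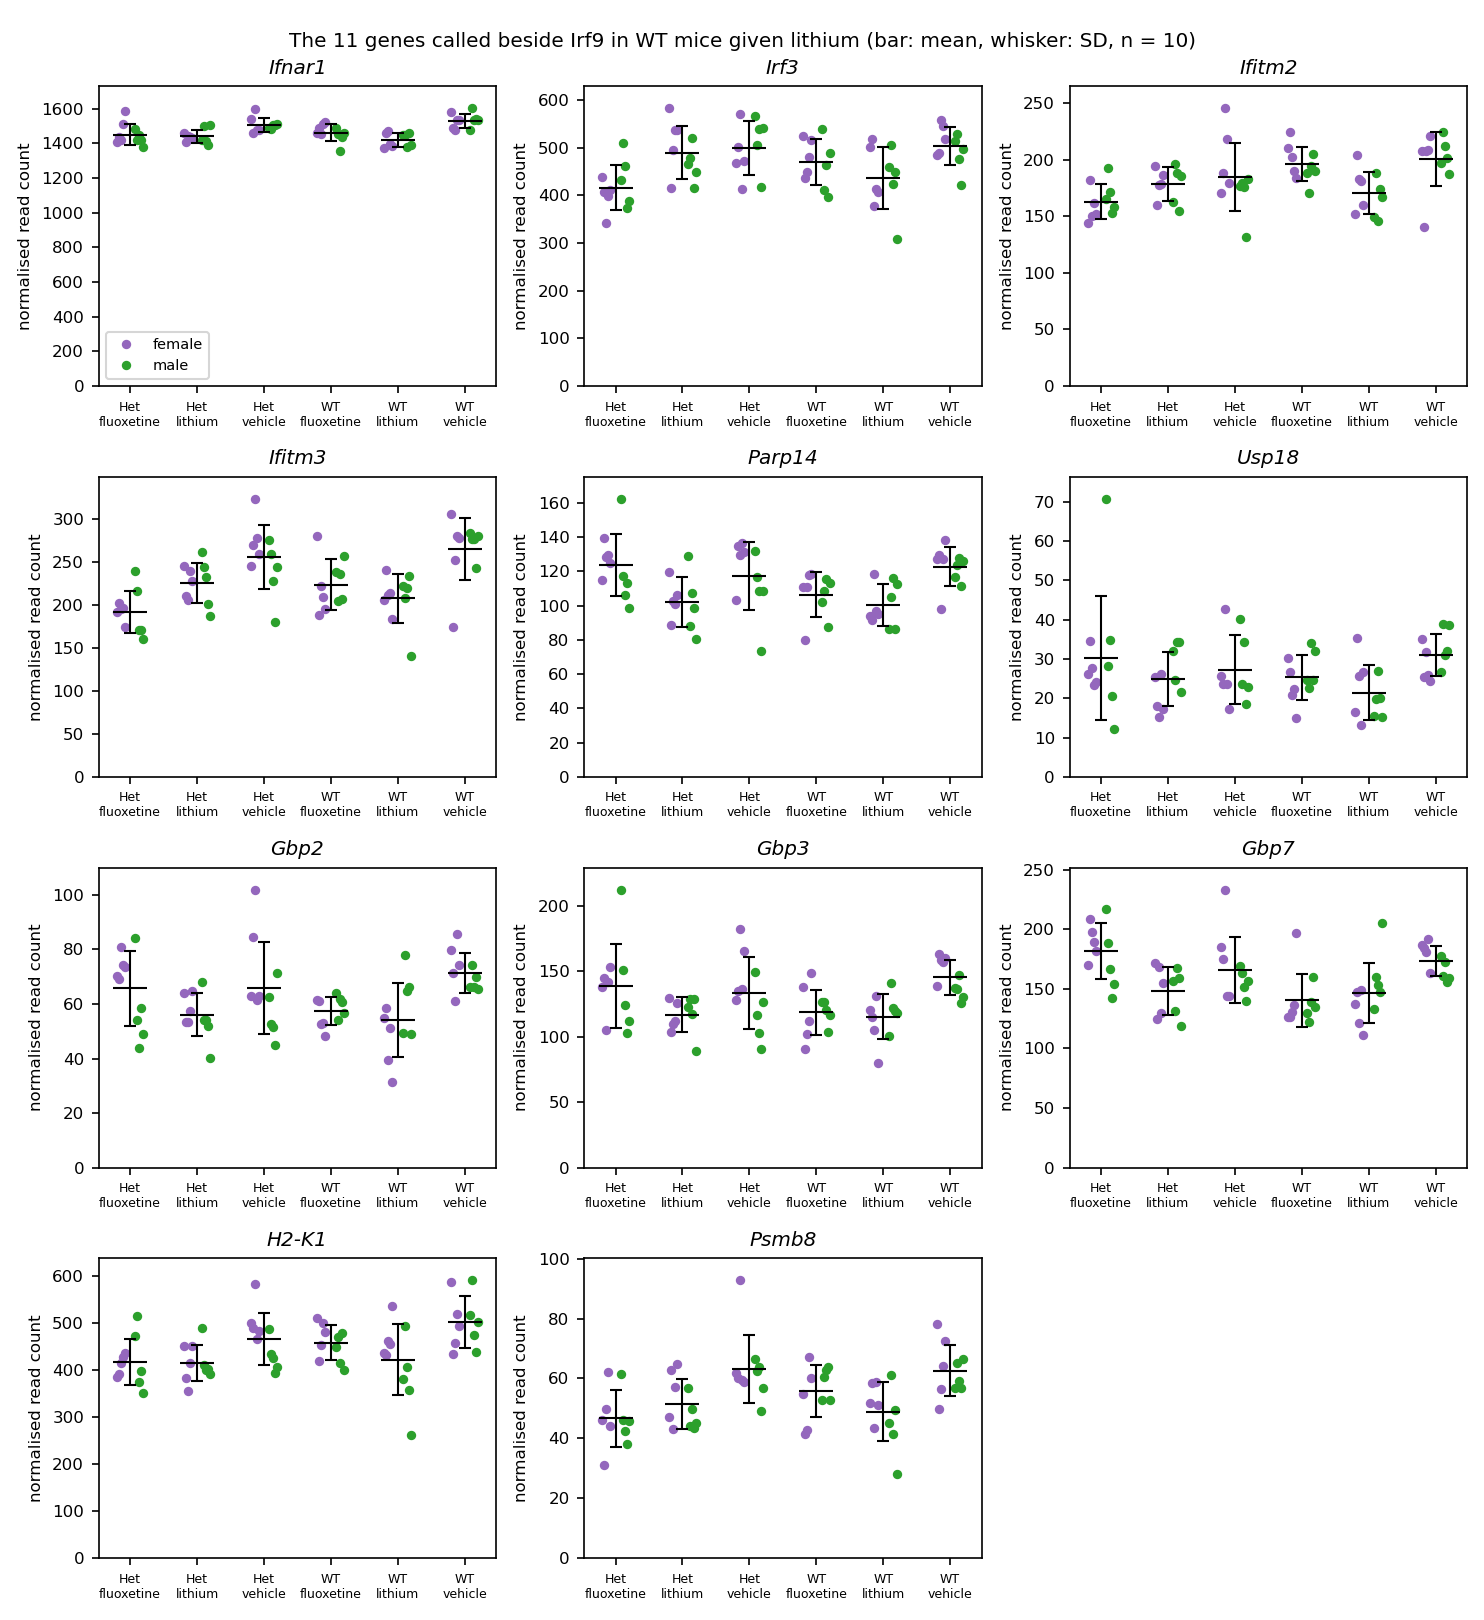
Normalised read counts (vertical axis) of the 11 genes that, with Irf9, were called under lithium in WT mice, in the 60 libraries by genotype and drug, with females in purple, males in green and the mean and SD of 10 libraries in black. The WT lithium group sits below the WT vehicle group in each panel, without overlap for Ifnar1 alone, with medians of 53.0 against 70.5 for Gbp2 and 213 against 277 for Ifitm3.

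Among the genes of antigen presentation, H2-K1 and Psmb8 fell under lithium in WT mice, and H2-D1, Tap2 and Psmb8 fell under fluoxetine in Het mice. All 7 genes had a log2 fold below 0 in both contrasts. H2-K1 and H2-D1 encode class I heavy chains and lie with Tap1, Tap2, Psmb8 and Psmb9 in the MHC on chromosome 17. Het libraries held H2-K1 at a lowest, median and highest normalised read count of 350.4, 407 and 514 with fluoxetine, 356, 406 and 489 with lithium and 393, 474 and 583 with vehicle. WT libraries had 399, 462 and 510.2 with fluoxetine, 263, 434 and 535 with lithium and 434, 497 and 589.9 with vehicle. WT lithium male 5 held the lowest value of all libraries, and 9 of 10 WT lithium libraries lay below the WT vehicle mean of their sex (log2 fold -0.26, SE 0.073, adjusted p = 0.00812). With these 2 groups fitted alone the adjusted p was 0.0683.

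Normalised read counts of H2-D1 (lowest, median and highest) were 643, 837 and 969.5 in Het mice given fluoxetine, 776, 896 and 1079 in those given lithium and 796, 946 and 1094 in those given vehicle. WT mice had 816, 918 and 1025 with fluoxetine, 619.6, 949.8 and 1364 with lithium and 768, 997 and 1154 with vehicle. H2-D1 fell in Het mice given fluoxetine, where 8 of 10 libraries lay below the Het vehicle mean of their sex (log2 fold -0.20, SE 0.071, adjusted p = 0.0245). The call was lost without any 1 of 5 libraries (adjusted p from 0.0516 to 0.0729): Het fluoxetine female 1, male 4 or male 5, and Het vehicle female 3 or male 2. After GC correction the fold was -0.061 (adjusted p = 0.467), and with the library term 0.14 (adjusted p = 0.826).

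H2-D1 was also the one gene of the 36 whose drug contrast differed between the sexes, under lithium in WT mice (log2 difference, female minus male, 0.47, adjusted p = 0.0347), where 9.64% of all genes were called. That share was 0.00561%, or 1 gene, without the 3 libraries with the largest residuals, 0.0393% after GC correction and 0% with the WT lithium and WT vehicle groups fitted alone, and H2-D1 was called in none of these. In females the 5 WT lithium libraries had 953, 955, 964, 1029 and 1364, against 768, 971, 976, 1008 and 1065 in WT vehicle. In males they had 619.6, 804, 871, 879.5 and 946.5, against 949, 987, 1014, 1056 and 1154 in WT vehicle. The male groups did not overlap, and the female groups did. The call was lost without WT lithium female 5 (adjusted p = 0.123), WT lithium male 5 (0.144), WT vehicle female 2 (0.126) or WT vehicle male 2 (0.0617), and without the 3 libraries with the largest residuals, which are the first 3 of these, the difference was 0.19 (adjusted p = 0.767).

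Psmb8 and Psmb9 encode catalytic subunits of the immunoproteasome, and Tap1 and Tap2 the transporter that carries its peptides to class I molecules. For Psmb8, lowest, median and highest normalised read counts came to 31.1, 46.02 and 62.1 in Het fluoxetine, 43.2, 48.5 and 64.7 in Het lithium and 49.3, 61.02 and 92.7 in Het vehicle mice. Those of WT mice came to 41.6, 57.4 and 67.1 in fluoxetine, 28.2, 50.3 and 61.3 in lithium and 49.8, 61.8 and 78.2 in vehicle libraries. The level was lower in 9 of 10 libraries of both WT lithium and Het fluoxetine than the vehicle mean of their genotype and sex. Psmb8 fell in WT mice given lithium (log2 fold -0.37, SE 0.11, adjusted p = 0.018), a call lost without WT lithium male 5 (adjusted p = 0.0613) or with these 2 groups fitted alone (adjusted p = 0.0646). It fell in Het mice given fluoxetine (log2 fold -0.44, SE 0.11, adjusted p = 0.00198), with a fold of -0.017 under the library term (adjusted p = 0.991). In Het mice, the lowest, median and highest normalised read counts of Tap2 were 95.8, 139.6 and 163 under fluoxetine, 121, 149 and 175 under lithium and 118, 168 and 188 under vehicle. The same counts in WT mice were 136, 159.5 and 182 under fluoxetine, 98.8, 147 and 198 under lithium and 129, 176 and 207 under vehicle. Tap2 fell in Het mice given fluoxetine (log2 fold -0.27, SE 0.093, adjusted p = 0.0178), with 8 of 10 libraries below the Het vehicle mean of their sex. That call was lost without Het fluoxetine male 4 (adjusted p = 0.0572), after GC correction (adjusted p = 0.336) and with the library term, where the fold was 0.10 (adjusted p = 0.923).

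B2m, the light chain of class I molecules, Tap1 and Psmb9 were not called. B2m had lowest, median and highest normalised read counts of 1624, 1714 and 1795 in Het fluoxetine, 1306, 1596 and 1710 in Het lithium and 1428, 1783 and 2179 in Het vehicle libraries. They were 1375, 1598 and 2101 in WT fluoxetine, 1417, 1597 and 2284 in WT lithium and 1559, 1735 and 2105 in WT vehicle libraries. All groups of B2m overlapped. Het libraries held Psmb9 at a lowest, median and highest normalised read count of 12.2, 18.4 and 29.1 with fluoxetine, 10.8, 21.8 and 30.2 with lithium and 15.5, 21.9 and 36.7 with vehicle. WT libraries had 15.2, 20.5 and 28.9 with fluoxetine, 12.6, 21.02 and 24.4 with lithium and 11.1, 24.4 and 31.9 with vehicle. The same held for Psmb9. Group medians of Tap1 ran from 57.8 in Het fluoxetine to 70.8 in WT fluoxetine libraries. Under fluoxetine in Het mice Psmb9 had a log2 fold of -0.36 (adjusted p = 0.0778).

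Between the sexes, 0 of the 36 genes were called over the 6 groups (0.107% of all genes called), and edgeR called 0. At an unadjusted p of 0.05 there were 3, all higher in females: Ifi35 (log2 fold 0.19), H2-K1 (0.10) and Oasl2 (0.14), each with an adjusted p of 0.999. Of the 36 genes 29 had a female-minus-male fold above 0, with a median of 0.043 beside -0.001 over all genes. In the other 6 tests of whether a contrast differed between the sexes, 0% of all genes were called and so 0 of the 36, with edgeR also at 0 of the 36. Between 0 and 3 of the 36 reached an unadjusted p of 0.05 in each. The differences with the smallest p, female minus male on the log2 scale, are given for each test. They were 0.48 for Gbp2, -0.20 for Stat2 and 0.24 for Ifit2 for Het against WT in fluoxetine, 0.53 for Gbp2, -0.34 for H2-K1 and -0.30 for H2-D1 in lithium and 0.88 for Psmb9, 0.31 for Ifitm2 and -0.28 for Irf9 in vehicle. For fluoxetine against vehicle they were -0.33 for Ifitm2, -0.46 for Ifit3 and -0.27 for B2m in Het mice and -0.55 for Xaf1, -0.63 for Irf7 and -0.24 for Irf9 in WT mice, and for lithium against vehicle -0.20 for Ifngr1, -0.25 for B2m and -0.36 for Gbp3 in Het mice. None of these passed the test, and no gene stood first in all of them.

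Other genes of the pathway were counted in 3 lists. Of 24 other genes of interferon signalling and sensing, lithium in WT mice raised 1, the kinase gene Tbk1 (log2 fold 0.13), and lowered 5, with Tmem173 (-0.41), which encodes the DNA sensor adaptor STING, and Mavs (-0.31), the adaptor of the RNA sensors, at the smallest p. Of 33 other interferon-stimulated genes it raised 1, Mx1 (0.61), and lowered 6, led by Gbp4 (-0.46) and Oas1a (-0.59). Of 17 other antigen presentation genes it lowered 5, led by Tapbp (-0.29), which loads class I molecules, and Psme1 (-0.26), a proteasome activator subunit. The medians of the 3 lists were -0.085, -0.15 and -0.11. Beside the 19.2% of all genes called in this contrast, the lists had 6 of 24, 7 of 33 and 5 of 17 called. With the 2 groups fitted alone they had 2, 3 and 3, beside 7.18% of all genes.

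Fluoxetine in Het mice raised 4 and lowered 8 of the signalling genes, with Jak1 (0.12) and Tlr7 (0.34) higher and Tyk2 (-0.21) and Irf2 (-0.20) lower. It raised 2 of the other interferon-stimulated genes, Herc6 (0.30) and Trim30a (0.30), and lowered Pml (-0.14). Of antigen presentation genes it raised Erap1 (0.26) and Pdia3 (0.14) and lowered Psmb10 (-0.29) and Tapbp (-0.25). In this contrast 39% of all genes were called, and the lists had 12 of 24, 3 of 33 and 4 of 17. Between Het and WT mice given fluoxetine the counts were 6 higher and 2 lower, 8 higher and 0 lower, and 3 higher and 1 lower in the 3 lists, where 39.5% of all genes were called. After GC correction they were 3, 3 and 2, all higher. In neither of these contrasts was a gene of the 3 lists called with the library term. Fluoxetine in WT mice lowered Il10rb (-0.23) and lithium in Het mice Tmem173 (-0.33), each the one call in the 3 lists. Genotype in vehicle and in lithium gave 0 calls in these lists, with 5 and 4 genes at an unadjusted p of 0.05.

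Calls were also read by promoter. Under lithium in WT mice 5 of the 14 genes with an ISRE core fell, beside 5 of the 18 with a window and no such core and 2 of the 4 with no window, and the median log2 folds were -0.19, -0.16 and -0.26. Under fluoxetine in Het mice 1 of the 14 rose and 1 fell, beside 1 and 4 of the 18 and 0 and 1 of the 4. Over all genes 19.2% were called under lithium in WT mice and 39% under fluoxetine in Het mice. With the library term the calls under fluoxetine in Het mice other than that of Ifit3, among the 14, were lost. That fit called 0.275% of all genes in this contrast. The Ifit3 fold in that fit is not independent of Het fluoxetine male 1, where Ifit3 stood apart. These counts describe the genes with and without the letters and were not tested.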

How the data were processed

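The measurements are RNA-seq libraries from mouse prefrontal cortex, 60 in all, 5 per genotype, drug and sex. Libraries were prepared from total RNA with a TruSeq stranded mRNA kit, per the labels. The genome build was GRCm38, and R 3.6.0, DESeq2 1.19.11 and Salmon 0.11.2 are named, per the submitters' processing notes. The deposited values are a signal: normalised read counts that equal whole reads divided by 1 size factor per library, recovered within 0.001 reads for 100% of values. Totals were 23901635 to 37769417 reads, and low genes have the least precision. The sources used here do not tell if reads were assigned by strand.

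The 17810 of 18088 genes that reached 10 in 5 or more libraries were compared with limma 3.58.1 (R 4.3.3; trend and robust) on log2(value + 1). The fit held 12 means of genotype, drug and sex over 60 libraries with 48 residual degrees of freedom, and p-values were adjusted by Benjamini and Hochberg over all genes. There were 17 contrasts. Alternatives were TMM factors, a pseudocount of 5, no filter on low values, a replicate block, a correction for GC content (loess, span 0.3), a term for the 10 libraries low in 16 pseudogenes chosen by their log2 fold between Het and WT in fluoxetine, leaving out the 3 libraries with the largest residuals, edgeR 4.0.16, the compared groups alone and leaving out each library. Leaving out the 2 libraries highest in the most members was chosen after seeing the data. The members, the other gene lists and the markers were chosen with earlier results of these data known. Genes are named where they were called, or had the 3 smallest p of a contrast without calls. Of the other pathway lists, called genes of smallest p are named, but not every gene this selects is reported here. Sequences are RefSeq's.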

Additional observations from a re-analysis of the deposited data

Results flagged for a closer look

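In groups of 10 libraries, 29 of the 216 combinations of gene and group held a library whose gap to its nearest neighbour was large for the range of the group by Dixon's criterion. Chance flags about 1 in 20 groups. Of the 29, 20 were the highest and 9 the lowest of their group, and several libraries recur.

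Het fluoxetine male 1 was the highest of its group for Stat2 with a normalised read count of 1269, Irf7 with 122.8, Ifit1 with 118.6, Ifit3 with 410.9, Ifi27 with 436.9, Xaf1 with 100.9, Isg15 with 74.9, Usp18 with 70.74 and Gbp3 with 212.2. Het vehicle female 3 was the highest for Gbp7 with 233.3 and Psmb8 with 92.7, and Het lithium female 1 for Irf9 with 437.8. Het vehicle male 4 was the lowest for Ifi35 with 29.55 and Parp14 with 73.34, and Het fluoxetine male 2 for Ifngr2 with 1134.

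Among WT libraries, WT fluoxetine female 5 was the highest for Ifnar2 with 436.3, Ifngr1 with 505.1 and Gbp7 with 196.7. WT lithium female 5 was the highest for Stat2 with 905.4 and Ifit3 with 307.5, and WT lithium male 5 for Ifih1 with 198.6 and Gbp7 with 205.1. WT vehicle female 2 was the highest for Ifit2 with 390.8 and the lowest for Ifitm2 with 140.8, Ifitm3 with 174 and H2-D1 with 768.1. The lowest of their groups were also WT fluoxetine male 3 for Ifnar1 with 1354, WT fluoxetine female 2 for Irf7 with 38.08 and WT vehicle male 4 for Trim25 with 182.2.

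The fluoxetine contrast differed between Het and WT mice by a tested log2 difference of 0.225 for Ifngr2, 0.544 for Ifit2, 0.433 for Ifit3 and 0.447 for Gbp7. The lithium contrast in WT mice differed between females and males by 0.467 for H2-D1.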

How the results depend on the processing

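Among the 36 genes, TMM factors, no filter, a pseudocount of 5, edgeR and the replicate block left each count of calls within 1.5 times. Same-numbered libraries had a median correlation of 0 (from -0.337 to 0.375 over 330 pairs). That median cannot tell if the number marks a batch in some groups, and the labels do not say what it stands for. The replicate block moved the genotype-by-fluoxetine count to 3, with Ifngr2 at 0.225 (adjusted p = 0.0503). GC correction gave 2 calls for Het against WT in fluoxetine, 6 for fluoxetine in WT, 1 for the genotype-by-fluoxetine interaction and 0 for the sex interaction of lithium in WT. The library term gave 0, 5, 0 and 0 for these and 1 for fluoxetine in Het. Over all 17810 genes that fit called 811 higher and 748 lower for fluoxetine in WT, and 0.275% for fluoxetine in Het. Without the 3 libraries with the largest residuals there were 6 for fluoxetine in WT, 2 for lithium in Het (1 of them higher) and 0 for the sex interaction. Over all genes, lithium in Het then gave 256 higher and 240 lower, against 86 and 89 with all libraries. Without the 2 libraries highest in the most genes there were 4 for fluoxetine in WT and 2 for the interaction of genotype and fluoxetine. The groups alone gave 4 for fluoxetine in WT, 7 for lithium in WT and 0 for the sex interaction, and had no fit for the sex contrast over all groups.

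Signs turned for Irf3 in Het against WT in fluoxetine after GC correction (0.0167), and with the library term for Ifitm3 in that contrast (0.273) and, for fluoxetine in Het, Ifitm3 (0.0815), H2-D1 (0.138) and Tap2 (0.103). The fit with the library term estimates Het fluoxetine from Het fluoxetine male 1 and from the shift seen in WT vehicle female 2. Het fluoxetine male 1 had log2 ratios to the other libraries of its group of 0.32 for Ifitm3, 0.2 for H2-D1 and 0.25 for Tap2. For WT vehicle female 2 these ratios were -0.67, -0.39 and -0.45. Signs that turned with the library term are therefore not independent of these libraries. The cause of the turned signs was not tested. Of 35 calls followed, GC correction ended 13, the library term 19, 4 of them with a turned sign, and the groups alone 7. Leaving out 1 library gave 4 to 8 calls for Het against WT in fluoxetine, 2 to 4 for fluoxetine in WT, 6 to 12 for fluoxetine in Het, 9 to 14 for lithium in WT, 0 to 1 for lithium in Het, 2 to 5 for the interaction of genotype and fluoxetine and 0 to 3 for the sex interaction of lithium in WT, and 0 throughout in the other contrasts. Of 35 called pairs of gene and contrast, 22 kept their call in each of these fits.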
